A study of Mus musculus with 8 samples.

Results

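Cluster 8 is a population of cells from cultured white fat preadipocytes, taken before or during their differentiation, and it was described through the 1126 genes that the deposited marker table lists for it, out of 13337 entries in all. The table covers 12 clusters, counted from 0 to 11, and 3903 gene symbols. Its members are all table rows that carry the cluster number 8, whatever their values. The cells came from the inguinal white fat of young adult C57BL/6 mice, either wild type (WT) or lacking both HMGN1 and HMGN2 (Hmgn1-/- and Hmgn2-/-, double knockout, DKO), 2 nuclear proteins that bind nucleosomes. They were grown on collagen and captured as single cells either as preadipocytes (day 0) or at day 6 of an induction towards brown-like adipocytes. The methods describe 4 days in a medium with insulin, dexamethasone, IBMX, T3 and rosiglitazone, then a maintenance medium with insulin and T3 alone. By this schedule, dexamethasone, IBMX and rosiglitazone had been withdrawn before day 6. Each of the 4 groups had 2 cultures, described as biological duplicates and captured on lanes of their own. DKO mice lack the proteins in every cell, so that the culture is a model of a constitutive loss.

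White fat grows from fibroblast-like precursors that hold a contractile actin cytoskeleton and secrete collagen. When they are committed to fat, hormones in the medium switch on the transcription factors PPARγ and C/EBPα, the cells dismantle their stress fibres, surround themselves with a basement membrane, and load lipid. Gelsolin (Gsn) cuts and caps actin filaments, Peg3 is a zinc finger protein expressed from the paternal allele, and Col5a3 encodes a chain of type V collagen. These 3 genes gave the population its working name, and Col5a3 is also 1 of the 2 genes, with Serpina3n, by which the study recognised differentiating cells.

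The values used are detection levels, the percent of cells in which at least 1 transcript of a gene was counted, inside cluster 8 and in all other cells. They were pooled by the authors over the 8 samples, so they have no replicate, no SD and no test, and neither the genotypes nor the days could be compared. A cluster cut from the same cells is no test of its own genes, and all differences below are descriptions. Detection rises with the reads per cell as well as with the level of the RNA. The methods give targets for the cells and reads of each capture, but the numbers behind these values are unknown, and their precision is that of the rounding, 0.1 percentage points. A gene without an entry in a cluster missed a minimum of the authors' comparison there, and this is not a value of 0. The methods describe no removal of doublets, and neither these nor free RNA in the droplets were separated here. From the detection levels of 10 genes listed in every cluster, cluster 8 was solved to hold 5.92% of all cells, the ninth place by size. All 1096 genes that cluster 8 shares with another cluster gave the same detection over all cells from each cluster that lists them, within 0.2 percentage points. Hmgn1 and Hmgn2 have no entry in cluster 8, so the knocked-out genes could not be looked up there.

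Of the 1126 genes, 295 (26.2%) were detected in at least 10 percentage points more of its cells than elsewhere, 513 (45.6%) in at least 10 points fewer, and 318 lay between. On a scale of log odds, with a minimum of ln 2, the counts were 406 and 430, so the surplus of lower genes depends on the scale. The median difference over the 1126 genes was -6.2 points, and the range ran from -60.2 to 61.9. A total of 159 genes were detected in under 10% of the cells of cluster 8, and 15 of these were found in at least 50% of the other cells. In the opposite direction, 29 genes were detected in at least 50% of cluster 8 and in under 25% of the others. A further 118 genes were at 90% or more on both sides, where detection has no room to differ.

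**Figure D1:**
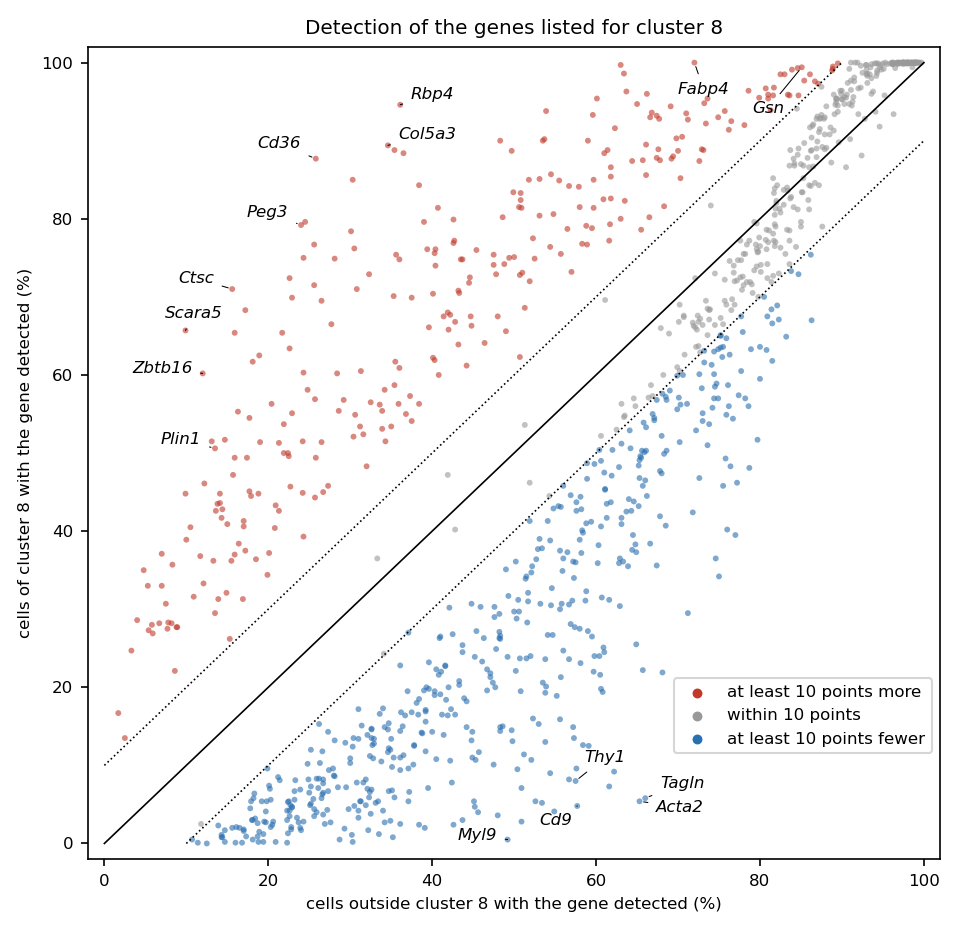
Each point is 1 of the 1126 genes listed for cluster 8, with the percent of cells detecting it outside cluster 8 (x axis) and inside it (y axis). The solid line marks equal detection and the dotted lines a difference of 10 percentage points. The 295 red genes are above and the 513 blue genes below, with Cd36 (87.7% inside, 25.8% outside) and Tagln (5.8% inside, 66.0% outside) at the far ends.

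The 3 naming genes differed in how far they singled out the cluster. Col5a3 (chromosome 9, 20770050 to 20815067, minus strand, mm10, GENCODE M21) was detected in 89.4% of its cells and in 34.6% of the others, the highest level among the 9 clusters with an entry, ahead of 83.1% in cluster 6 and 75.6% in cluster 2. Peg3 (chromosome 7, 6703892 to 6730431, minus strand) was detected in 79.2% against 24.0%, but slightly more often in cluster 6, at 81.4%, and in 60.8% of cluster 11. Gsn (chromosome 2, 35256380 to 35307892, plus strand) was at 99.4% against 85.1%, while cluster 11 stood at 99.5% and clusters 0, 1, 5, 6 and 9 between 88.1% and 94.9%. The low entries for Gsn were 58.9% in cluster 4 and 23% in cluster 10. Of the 3 genes, Col5a3 alone had its highest listed level in cluster 8. Serpina3n, an acute-phase protease inhibitor, was detected in 90.2% of cluster 8 against 53.7% elsewhere, next to 91.3% in cluster 2 and 89.7% in cluster 6. Both study markers of differentiating cells were thus detected more widely in cluster 8 than outside it. With 2 genes the marker list is too short to give the cluster a cell type name.

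The 20 genes with the largest excess of detection were found in 60.2% to 94.6% of the cells of cluster 8 and in 9.9% to 36.5% of the others. Several serve lipid handling. Cd36 (chromosome 5, 17781690 to 17888801, minus strand), a fatty acid transporter, was detected in 87.7% of cluster 8, 68.4% of cluster 2, 69.0% of cluster 4, 78.2% of cluster 6 and 99.8% of cluster 11, but in 1.0% to 3.5% of clusters 0, 1, 3, 5, 9 and 10. Rbp4, the plasma retinol carrier, stood at 94.6% against 36.1%. Angptl4, a secreted inhibitor of lipoprotein lipase, stood at 85.0% against 30.3%, and Pde3b, the phosphodiesterase through which insulin restrains lipolysis, at 68.3% against 17.2%. The adipocyte carbonic anhydrase Car3 was detected in 72.4% against 22.6%, the cysteine dioxygenase Cdo1 in 79.6% against 24.5%, the FoxO1 corepressor Fcor in 69.9% against 22.9%, and Arxes2, named for its expression in adipocytes, in 74.9% against 28.1%. All 8 of these genes were detected still more widely in cluster 11, from 94.1% for Angptl4 to 100% for Cdo1, and in cluster 0 from 1.6% for Car3 to 23.1% for Angptl4.

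Other leading genes act at the cell surface, in the matrix or in signalling. Scara5 (chromosome 14, 65666403 to 65764826, plus strand), a scavenger receptor that takes up ferritin, was detected in 65.7% of cluster 8 against 9.9% outside it, with 40.9% in cluster 6, 38.1% in cluster 2 and 0.4% to 1.3% in clusters 0, 1, 5, 7 and 10. Ctsc, a lysosomal dipeptidyl peptidase, stood at 71.0% against 15.6%, with 36.3% in cluster 2. Col15a1, a collagen of the basement membrane zone, was at 88.8% against 35.4%, and Prg4, the lubricant proteoglycan lubricin, at 76.7% against 25.6%. Ifi207, a member of the interferon-inducible p200 family, was at 88.4% against 36.5%. The cofilin phosphatase Ssh2 (75.0% against 24.3%) and the RhoA exchange factor Net1 (65.4% against 15.9%) bear on actin. Gja1, the gap junction protein connexin 43, reached 71.5% in cluster 8 and 25.6% elsewhere. Fkbp5 and Zbtb16 complete the 20 and are taken up with the glucocorticoid genes. In 7 of the 20, namely Scara5, Ctsc, Col5a3, Ifi207, Prg4, Zbtb16 and Gja1, cluster 8 had the highest detection of all clusters with an entry. Of the 16 with an entry in cluster 11, 11 were detected more widely there than in cluster 8.

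**Figure D2:**
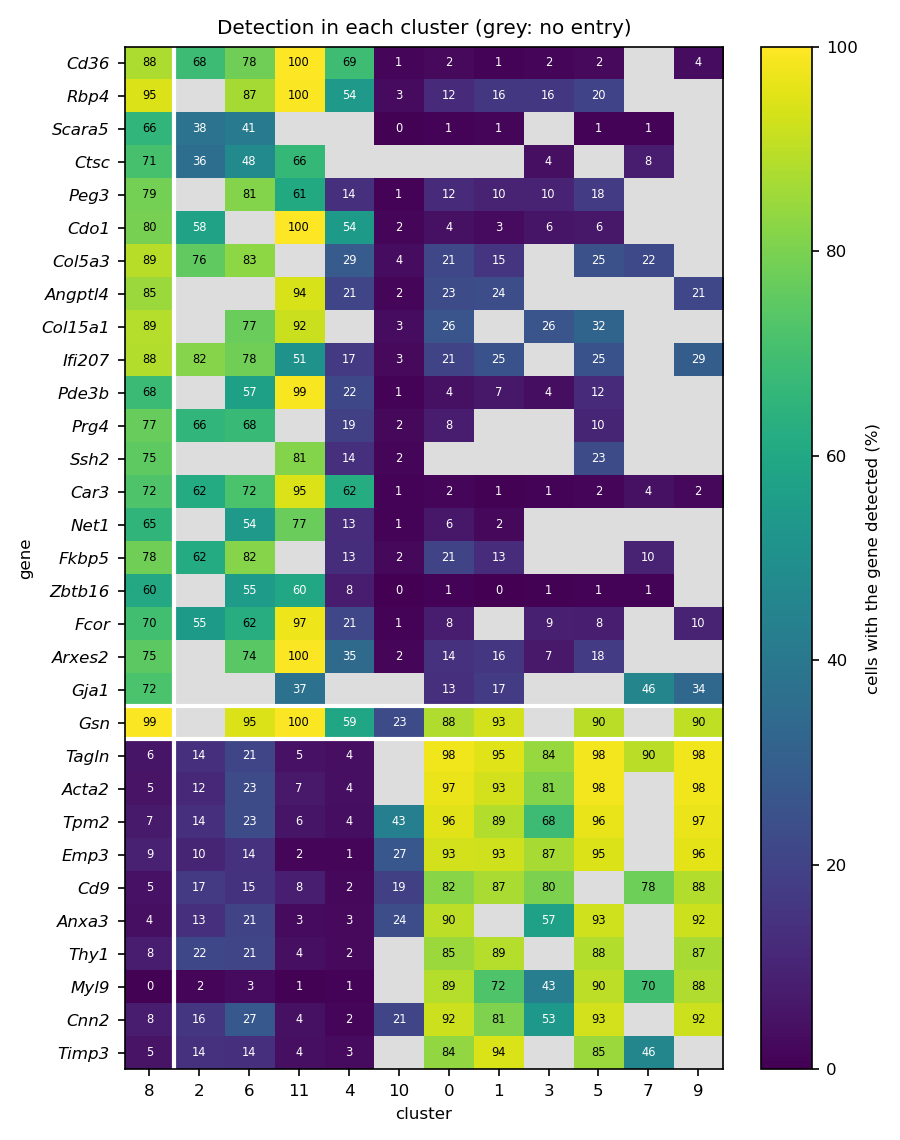
Percent of cells detecting each of the 20 genes with the largest excess in cluster 8 (top), Gsn (between the white lines) and the 10 genes with the largest deficit (bottom), in each of the 12 clusters, rounded to whole percents. Grey cells have no entry. Clusters 8, 2, 6 and 11 carry the upper genes where listed, and are low for the lower ones (at most 27.4%, Cnn2 in cluster 6), and clusters 0, 1, 5 and 9 show the opposite.

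Of 10 adipocyte genes, 7 have an entry in cluster 8, and 6 were detected in at least 10 points more of its cells, beside 26.2% of all its genes. Their median difference was 30.7 points. Fabp4, the adipocyte fatty acid chaperone, was detected in 100% of cluster 8, and Scd1, which makes monounsaturated fatty acids, in 99.7% against 63.0% of the other cells. Outside clusters 2, 4, 8 and 11, solved from the cluster shares, Fabp4 was still detected in 63.1% of cells. The lipid droplet coat gene Plin1 was found in 50.6% of cluster 8, in 27.8% of cluster 2, in 99.8% of cluster 11 and in 7.09% of the cells outside clusters 2, 4, 8 and 11. Lpl, lipoprotein lipase, was at 100% against 91.6% and had no room for a 10 point difference. Adipoq, Lipe and Dgat2 have no entry in cluster 8.

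The transcription factors of fat formation were detected more widely as well, all 7 of 15 that have an entry, beside 26.2% of all genes of the cluster, with a median difference of 23.6 points. This list is not independent of its neighbours. Pparg and Cebpa are also counted among the adipocyte genes, and Klf9 and Zbtb16 among the glucocorticoid genes below. Pparg, the receptor that rosiglitazone activates, was detected in 44.8% of cluster 8 against 14.1% elsewhere, and Cebpa in 49.4% against 25.8%. In cluster 11 the same genes stood at 89.9% and 98.7%. The early B cell factors Ebf1 and Ebf2 were at 93.9% and 51.5% inside, against 81.3% and 24.2% outside. Nr1h3, the oxysterol receptor LXRα, was at 28.2% against 8.2%. Ebf2 was the 1 gene of the 11 thermogenic genes with an entry in cluster 8. Ucp1, Cidea, Ppargc1a, Elovl3 and Cox7a1 have none.

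Of 14 genes known to respond to glucocorticoids, the class of hormone to which dexamethasone belongs, 9 have an entry, with a median difference of 31.6 points. By the described schedule, dexamethasone was no longer in the medium at day 6. Of these 9, 7 were detected in at least 10 points more cells, beside 26.2% of all genes. Fkbp5, which encodes a co-chaperone of the glucocorticoid receptor, was detected in 78.4% of cluster 8, 61.7% of cluster 2, 82.0% of cluster 6 and 10.1% of cluster 7. Zbtb16, a zinc finger repressor, was at 60.2% in cluster 8, next to 54.9% in cluster 6 and 59.7% in cluster 11. It was at 8.0% in cluster 4, and at 1.1% or less in clusters 0, 1, 3, 5, 7 and 10. Klf9 was at 95.4% against 73.6%, the glutamine synthetase gene Glul at 72.9% against 32.3%, the NF-κB inhibitor Nfkbia at 82.4% against 50.8% and Tsc22d3 at 29.5% against 13.5%. The metallothioneins Mt1 and Mt2 were detected in 100% of cluster 8 and in 97.6% and 91.1% of the others.

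Of the 13 basement membrane and network collagen genes with an entry, 9 were detected in at least 10 points more cells of cluster 8 and 2 in fewer, beside 26.2% and 45.6% of all genes, with a median of 16.0 points. Among them were the laminin chains Lamb1 (94.7% against 65.0%) and Lamc1 (94.4% against 69.1%), the type VI collagen chains Col6a1, Col6a2 and Col6a3 (98.5%, 93.2% and 92.8%, against 82.5%, 67.4% and 67.7%), the laminin-binding nidogen Nid1 (95.9% against 83.4%) and Col18a1 (42.6% against 13.6%). The exceptions were Lamb2 (24.9% against 47.8%) and Col8a1, at 0.1% against 22.3%. The levels outside include the low ones of clusters 4 and 10. Nid1 was at 29.9% and 17.8% there, and at 89.5% to 97.9% in the other clusters with an entry. Col6a1 was at 35.8% and 16.6% there, and at 86.1% to 98.8% in the others listed. The part of clusters 4 and 10 in the count of higher genes was not tested for this list. Of the 9 fibrillar and associated collagens listed, Col5a3 was the 1 detected more widely. Col1a1, Col1a2, Col3a1 and Col5a2 lay within 10 points at 91.8% to 99.4%, and Col11a1, Col12a1, Col14a1 and Col16a1 were detected in fewer cells, with Col14a1 at 0.1% against 16.8%.

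Of 8 elastic fibre and microfibril genes, 7 were detected in fewer cells, beside 45.6% of all genes, with Fbln2 at 96.3% against 93.8% as the exception. The microfibril proteins Mfap4 and Mfap5 were detected in 3.0% and 34.2% of cluster 8 against 43.7% and 75.0%, and fibrillin Fbn1 in 64.9% against 83.2%. Among the small leucine-rich proteoglycans, Prelp (2.4% against 42.6%), Podn (5.9% against 35.4%) and Ogn (6.7% against 23.2%) were detected in fewer cells, whereas Dcn and Bgn lay within 10 points. Of 10 matrix proteases, inhibitors and crosslinkers, 6 were detected in fewer cells, near the 45.6% of all genes, and 1, Mmp19, in more (44.3% against 25.7%). The metalloproteinase inhibitor Timp3 stood at 5.2% against 53.4% and the aggrecanase Adamts5 at 19.4% against 60.8%. These deficits were largely shared with other clusters. In clusters 2, 6 and 11, Mfap4 was at 4.8%, 6.4% and 1.8%, and Prelp at 4.1%, 3.9% and 7.6%. Among genes listed for cluster 2 too, 2 of 4 elastic fibre genes were lower in cluster 8 by at least 10 points. The same held for 0 of 3 proteoglycans and 1 of 6 proteases, inhibitors and crosslinkers.

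The 3 genes with the largest deficit, Tagln, Acta2 and Tpm2, belong to the contractile cytoskeleton. Tagln (chromosome 9, 45929619 to 45936058, minus strand), encoding the actin-binding protein SM22α, was detected in 5.8% of cluster 8 and 66.0% of the other cells, and Acta2 (chromosome 19, 34241090 to 34255590, minus strand), smooth muscle actin, in 5.4% against 65.3%. In clusters 0, 1, 3, 5 and 9 Tagln and Acta2 reached 81.4% to 98.4%. Myosin light chain Myl9 was at 0.5% against 49.2%, tropomyosin Tpm2 at 7.3% against 61.6% and calponin Cnn2 at 8.2% against 56.7%. Cnn1 and Lmod1 were both at 0.2%, against 19.4% and 18.8%. Of the 23 actin and contractile genes with an entry, 15 were detected in at least 10 points fewer cells, beside 45.6% of all genes of the cluster, and 1, Gsn, in more. Of the 22 also listed for cluster 2, 18 lay within 10 points of it and 4 were lower in cluster 8. The general actin genes Actb (99.8%) and Actg1 (95.6%), profilin Pfn1 (95.3%) and cofilin Cfl1 (97.4%) stayed within 10 points of the other cells. The lower genes of this list were thus mainly those of stress fibres and smooth muscle, and the filament-severing Gsn stood on the other side.

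Many contractile genes are known to be driven by serum response factor, which binds a sequence named the CArG box, a run of 6 A or T bases between CC and GG. The RefSeq promoter table (GRCm38.p6), which spans 250 bases before to 50 after each gene's start, was searched for it on both strands, a search chosen after the values had been seen. It matched 425 of 27025 promoters (1.57%), 18 of the 852 promoters found for cluster 8 genes (2.11%), and 4 of the 20 found for the actin and contractile genes of cluster 8 (20%). Of these 4, Myl9, Cnn2 and Vcl were detected in fewer cells of cluster 8, and Actg1 lay within 10 points. The first 3 are among 13 lower genes of the list with a promoter found. Tagln, Acta2 and Tpm2 are not among the 4, which does not show that they lack the box. A promoter was found for 20 of the 23 genes of the list. Only exact matches in this window were counted, not boxes with another base or further away. Over all genes of cluster 8, the box matched 10 of 384 promoters of lower genes (2.6%) and 2 of 227 of higher genes (0.881%). The 4 stretches are shown 5′ to 3′ on the strand of the gene, each of 60 bases before its start, with the CArG box in capitals, because they place the same motif upstream of contractile genes that were low and of a general actin gene that was not. They lie at chr2:156775273-156775332 (Myl9, plus strand), chr10:79988514-79988573 (Cnn2, plus strand), chr14:20929148-20929207 (Vcl, plus strand) and chr11:120348556-120348615 (Actg1, minus strand). A match describes letters in this window and is no measure of binding.
Myl9: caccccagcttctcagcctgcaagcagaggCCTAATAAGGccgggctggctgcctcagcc
Cnn2: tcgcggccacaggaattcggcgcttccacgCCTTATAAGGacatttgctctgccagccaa
Vcl: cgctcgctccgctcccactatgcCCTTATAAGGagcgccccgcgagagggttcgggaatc
Actg1: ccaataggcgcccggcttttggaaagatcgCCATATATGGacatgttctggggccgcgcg

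Of 5 listed genes of adipose progenitors, 4 were detected in fewer cells, beside 45.6% of all genes. Thy1 (CD90) was detected in 8.0% of cluster 8 against 57.5%, and the tetraspanin Cd9 in 4.8% against 57.7%. Outside clusters 2, 4, 8 and 11 they stood at 72.2% and 73.3%. F3, the study's preadipocyte marker known as CD142, was lower but still present, at 57.4% against 77.4%, and Mmp3 was at 19.5% against 50.8%. Ly6a (Sca-1) did not share this deficit, at 81.7% against 74.0%, nor did the integrin Itgb1, at 84.6% against 86.7%. The remaining genes among the 10 with the largest deficit were Emp3 (9.2% against 62.2%) and the annexin Anxa3 (4.1% against 54.9%).

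Of 7 chemokine genes with an entry, 6 were detected in fewer cells, beside 45.6% of all genes, among them Cxcl12 (48.1% against 78.7%), Cxcl14 (14.9% against 48.3%), Ccl7 (19.3% against 53.8%) and Ccl8 (4.2% against 34.0%). The B cell attractant Cxcl13 went the other way, at 37.1% in cluster 8, 25.1% in cluster 2 and 7.0% of all cells outside cluster 8. Of 8 genes of the TGF-β pathway and its targets, 5 were lower, near the share of all genes, such as Ccn2 (2.8% against 50.9%) and the activin subunit Inhba (9.5% against 50.4%), while the receptors Tgfbr2 and Tgfbr3 were higher, at 88.8% and 94.8% against 61.4% and 73.2%. Of 15 complement genes, the 3 with an entry were all detected in fewer cells, beside 45.6% of all genes. Serping1, C1ra and C4b were at 42.4%, 13.4% and 18.6% against 71.8%, 31.0% and 43.9%. The acute-phase gene Saa3 was higher, at 77.2% against 42.7%. Igfbp6 was at 19.8% against 60.6% and Igfbp7 at 94.5% against 89.5%.

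Of 8 proliferation genes, 4 have an entry. All 4 were detected in fewer cells of cluster 8 than of the other cells, beside 45.6% of all genes. Mki67 was detected in 6.9% against 23.9%, Birc5 in 7.3% against 25.2%, Cdk1 in 10.9% against 30% and Top2a in 17.2% against 31.0%. The other cells include clusters 5, 6 and 9, in which these genes stood at 78.6% to 95.5%. Levels were low in cluster 2 and in clusters 0, 1, 3 and 7 as well. Mki67 was at 5.1% in cluster 2 and at 5.4%, 3.2%, 2.3% and 3.0% in clusters 0, 1, 3 and 7, and Top2a at 19.7% in cluster 2 and at 14.3%, 11.5%, 7.0% and 9.5% in those clusters.

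**Figure D3:**
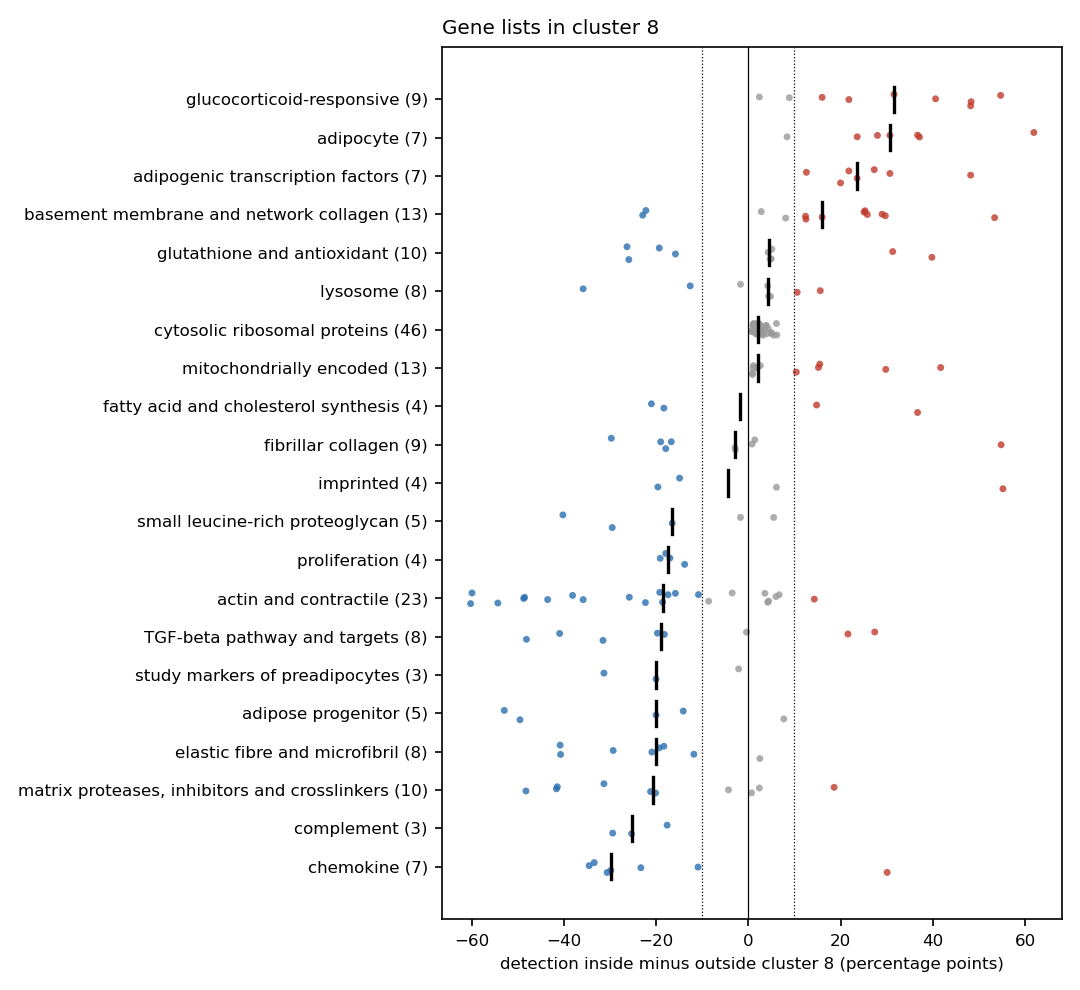
Difference of detection inside minus outside cluster 8, in percentage points, for the members of each gene list with at least 3 entries in the cluster (number in brackets). Each point is a gene, the black bar is the list's median, and dotted lines mark 10 points in either direction. Glucocorticoid-responsive and adipocyte genes have the highest medians (31.6 and 30.7) and chemokines the lowest (-29.8).

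Over all genes of the cluster, 26.2% were detected in more cells and 45.6% in fewer. The shares of higher genes among the imprinted, antioxidant and lysosomal lists were near the first of these. Peg3 was the 1 of 4 imprinted genes listed that was detected in more cells. The maternally expressed non-coding RNAs Meg3 (32.1% against 51.7%) and Rian (13.2% against 28.1%), which lie in 1 gene cluster, were lower, and Gnas was at 99.1% against 93.0%. Among 10 glutathione and antioxidant genes, catalase (Cat, 75.4% against 35.6%) and Txnip (74.8% against 43.5%) were higher, and Gpx1, Gpx7, Gpx8 and Sod3 were lower. Of 8 lysosomal genes, Lgmn (77.2% against 61.6%) and Psap (99.5% against 88.9%) were higher and the collagen-degrading cathepsin Ctsk (25.1% against 60.9%) and Hexa lower. For lipid synthesis, Scd1 and Scd2 (87.4% against 72.6%) were higher, and Fads2 (9.6% against 27.9%) and the isoprenoid enzyme Fdps (37.2% against 58.2%) lower. The AP-1 factors Fosl2 and Jund stood at 42.9% and 74.1% against 54.8% and 80.1%, and the MHC class I subunit B2m at 82.6% against 83.7%. All 46 genes with symbols of cytosolic ribosomal proteins lay within 10 points, with differences from 0.7 to 6.2. Their levels outside were 89.3% to 99.3%, which left almost no room for a 10 point excess. Of 13 mitochondrially encoded transcripts, 5 were detected in more cells, beside 26.2% of all genes. The other 8 were at 97.4% or more on both sides, with no room for a 10 point excess. All 13 were on the side of higher detection, from 0.9 to 41.7 points, the furthest being mt-Nd6 at 90% against 48.3%. In clusters 2, 6 and 11, mt-Nd6 was at 87.6%, 93.3% and 96.6%. The 12 listed also for cluster 2 all lay within 10 points of it, as did the 12 listed for cluster 11. Among markers of other cell types, 0 of 7 immune, 0 of 5 endothelial and 0 of 4 glial genes have an entry in any cluster. The methods describe the removal of such cells. Of 6 mural genes, the 2 with an entry, Acta2 and Pdgfrb (46.8% against 65.3%), were both detected in fewer cells, beside 45.6% of all genes.

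Cluster 2, in which Serpina3n was at 91.3%, was the closest of those compared over the genes listed for all of them. Of 348 genes listed for clusters 2, 4, 6, 8 and 11, 298 were detected within 10 points of cluster 8 in cluster 2, against 203 in cluster 11, 183 in cluster 6 and 88 in cluster 4. Genes without an entry could not be compared. An entry in cluster 2 exists for 61.8% of the genes of cluster 8, and in cluster 11 for 76.4%. Of the 20 leading genes of cluster 8, 10 have an entry in cluster 2, so closeness to it over the others is unknown. The comparisons with all other cells share most of these cells, so only the levels inside each cluster are set side by side. Over the 696 genes listed for both, cluster 8 was higher than cluster 2 by at least 10 points for 22 (3.16%) and lower for 59 (8.48%). The largest excesses were those of Ctsc (71.0% against 36.3% in cluster 2), Scara5 (65.7% against 38.1%), Plin1 (50.6% against 27.8%), Cdo1 (79.6% against 57.7%) and Id1, an inhibitor of differentiation factors (69.6% against 48.1%). The largest deficits were those of Tmem45a (51.4% against 83.7%), Vasn, a membrane protein that binds TGF-β (38.8% against 69.5%), Pi15 (18.5% against 48.2%), Parm1 (11.8% against 41.2%) and Plac8 (58.5% against 86.8%). Of the 3 progenitor genes listed for both, Thy1 (8.0% against 21.7%) and Cd9 (4.8% against 16.9%) were lower in cluster 8 and F3 was not (57.4% against 55.4%). Of the 3 adipocyte genes listed for both clusters, Cd36 and Plin1 were higher in cluster 8 and Fabp4 was at 100% against 99.6%.

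Cluster 11, which has the highest listed detection of Plin1, Cebpa and Pparg, differed from cluster 8 in both directions. Over 860 genes listed for both, cluster 8 was higher by at least 10 points for 155 (18%) and lower for 267 (31%). The genes lower in cluster 8 were led by the malic enzyme Me1 (13.4% against 78.1%), glycogenin Gyg (29.4% against 83.8%), the cystathionine enzyme Cth (8.1% against 61.3%), Cebpa (49.4% against 98.7%) and Plin1 (50.6% against 99.8%). Of the 7 adipocyte genes, 4 were lower in cluster 8 by at least 10 points and 0 were higher. The 3 genes of fatty acid and cholesterol synthesis listed for both lay within 10 points. They were Scd1 (99.7% against 100%), also 1 of the 7 adipocyte genes, Scd2 (87.4% against 93.7%) and Fads2 (9.6% against 5.9%). Scd1 was at the ceiling and Fads2 low in both clusters. Me1 and Cth were also rarer in cluster 8 than in all other cells, where they stood at 35.0% and 23.3%. The genes higher in cluster 8 were led by Gas1, a growth arrest protein (85.0% against 33.5%), the matrix protein gene Sned1 (81.5% against 32.4%), Rnase4 (92.5% against 45.3%), Emp1 (81.6% against 35.3%) and the interleukin 1 receptor Il1r1 (82.5% against 36.5%). Of 8 elastic fibre genes, 5 were higher in cluster 8 than in cluster 11, for example Fbn1 at 64.9% against 30%, and 0 were lower. The contractile genes did not separate the 2 clusters in the same way, as Tagln was at 5.8% and 4.9%, and Acta2 at 5.4% and 6.7%.

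Against cluster 4, cluster 8 was higher by at least 10 points for 676 of 846 genes (79.9%) and lower for 0 (0%). Cluster 4 is marked by low detection as such, since the genes listed for it had a median detection of 10.8% inside it and 63.0% outside, and the part of this in each difference was not tested. The 5 leading genes were Dpt (84.2% against 8.8%), Ly6e (90.3% against 15.2%), Arpc1b (92.8% against 17.7%), Nsa2 (95.8% against 22.1%) and Ccdc85b (88.0% against 15.5%). Of the 7 adipocyte genes, 5 were higher in cluster 8 by at least 10 points, with a median of 18.7 points, next to a median of 34.5 over the 846 genes. Plin1 was at 50.6% against 29.3%, Pparg at 44.8% against 11.7% and Cebpa at 49.4% against 21.1%, while Fabp4 (100% against 98.5%) and Scd1 (99.7% against 97.7%) lay within 10 points.

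**Figure D4:**
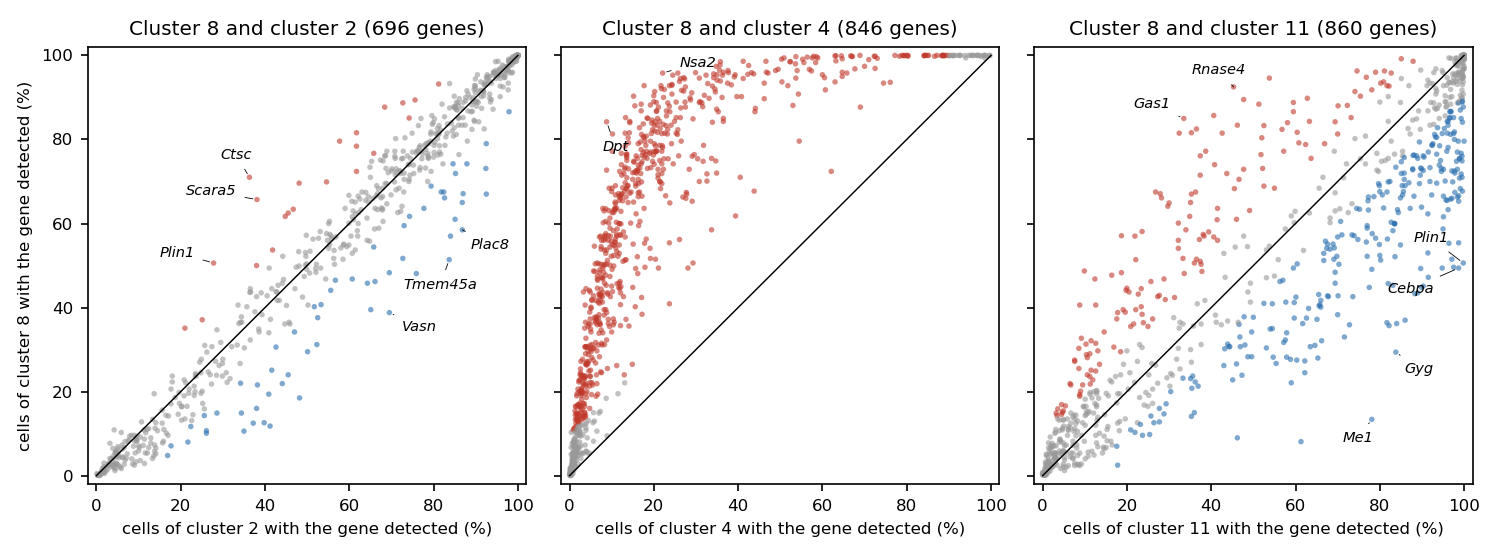
Percent of cells detecting each gene in cluster 8 (y axis) and in cluster 2, 4 or 11 (x axis), for the 696, 846 and 860 genes listed for both. Red genes are higher and blue genes lower in cluster 8 by at least 10 percentage points. Points hug the diagonal for cluster 2, bow above it for cluster 4 and spread to both sides for cluster 11.

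Few genes had their peak in cluster 8. Of the 295 genes detected more widely in it, 269 have an entry in another cluster, and for 58 of these cluster 8 had the highest level of all clusters listed. Some of the 58 are listed elsewhere for cluster 4 or cluster 10 alone, such as Dpt (8.8% in cluster 4) and Nav1 (2.9% in cluster 10). Others lead narrowly, down to 0.1 points for Maf. The highest other level belonged to cluster 11 for 146 of the 269, to cluster 6 for 61 and to cluster 2 for 43. Among genes with at least 4 other entries, the widest leads were those of Gja1 (71.5%, with cluster 7 next at 45.7%), Scara5 (65.7%, with cluster 6 next at 40.9%), the splicing kinase Clk1 (56.3%, with cluster 5 next at 35.2%), Prg4 (76.7%, with cluster 6 next at 67.5%) and Tent5a (80.4%, with cluster 2 next at 73.2%). Solved from the cluster shares, the clusters without an entry averaged 4.3% over their cells for Scara5, 18.42% for Prg4, 27.49% for Gja1 and 63.94% for Tent5a. Gja1 has no entry in clusters 2, 4 and 6, and Tent5a has none in cluster 6. Their leads therefore hold among the listed clusters only. For Clk1, the other cells as a whole stood at 35.9%, above its next listed cluster. The clusters without an entry averaged 42.54% over their cells, and the level of each is unknown. Clk1 and Tent5a are named here for this lead, a choice made after their values had been seen. A further 30 genes were listed for cluster 8 alone, 26 of them detected in at least 10 points more of its cells.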

How the data were processed

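Single-cell RNA was captured with a 3′ droplet chemistry from 8 cultures in 4 groups of 2. Per the labels and the study's methods, the authors mapped reads to mm10 with Cell Ranger 6.0.0, aggregated the captures with equalized read depth, removed low-quality cells, normalized them on a log scale in Seurat, dropped endothelial, glial and immune cells, clustered the rest and compared each cluster with all remaining cells by MAST. The deposited table gives, for each cluster and gene, 2 fractions pooled over samples, of the cluster's cells and of the remaining cells that hold the transcript. These fractions are printed as percents. Its further columns hold the authors' own fold changes and p-values, which were not used here, although an entry exists only for genes that passed their minimums. No column holds a value per sample, so no columns with values per sample were left unused (0).

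Genes were ranked and counted by the difference of the 2 percents, with a minimum of 10 percentage points. Cluster shares were solved by least squares, since the detection over all cells must be equal from each cluster. The solver recovered known shares on simulated data. A pair of dates made by a spreadsheet were restored to the symbols Sept7 and Sept11. Named are the 20 genes with the largest and the 10 with the lowest difference, the members of 32 lists, Gsn, Peg3 and Col5a3, and the 5 leading genes in each direction against clusters 2, 4 and 11. The search for a motif followed later. The members and lists were chosen with earlier results of these data known. Python 3.11.15, numpy 2.4.6, pandas 2.3.3 and matplotlib 3.10.9 were used. Alternatives were other minimums, a scale of log odds, a filter on low detection, other gene sets for the shares, and the other cells without clusters 4 and 10.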

Additional observations from a re-analysis of the deposited data

How the results depend on the processing

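No paired analysis was possible because all values were pooled over the samples by the authors, which also kept any replicate from being left out. The share of cluster 8 was 5.94% when solved from every gene with entries in 2 or more clusters and 5.92% with the shares forced to sum to 100%. Counts depend on the minimum difference by construction. At 20 points, 269 genes were detected in fewer cells of cluster 8, 5 were higher and 22 lower than in cluster 2, and 68 were higher and 127 lower than in cluster 11. At 5 points, 58 genes were higher and 130 lower than in cluster 2. On the scale of log odds, with a minimum of ln 2, these were 41 and 94, 5 genes were lower than in cluster 4, and 117 list members were detected in more cells of cluster 8 in place of 44, and 66 in fewer in place of 72. Over all genes of cluster 8 that scale gave 406 in more cells and 430 in fewer, against 295 and 513. The log odds ranking shared 0 of the 20 leading genes and 1 of the 10 lowest, since 19 of its 20 genes were detected in at least 99.9% of cluster 8 and its 10 lowest in at most 1%. For the 276 genes listed for clusters 4, 8 and 10, leaving clusters 4 and 10 out of the other cells, an alternative added after the data were seen, changed 97 genes in more cells to 86 and 106 in fewer cells to 136. The number of cells and reads is unknown, so the effect of depth was not measured.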
